A study of Mus musculus with 6 samples.

Results

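Runx1, Runx2, Runx3 and Cbfb, the genes of the RUNX transcription factors and their shared partner, were followed across 6 RNA sequencing libraries of C2C12, an immortalized mouse myoblast line. The 4 genes and their transcript rows were chosen by name, and they account for 4 of 24809 genes and 17 of 38468 transcript rows in the table. Control C2C12 cells (n = 3), whose column headings name a vector, were compared with C2C12 cells overexpressing Msx1 (n = 3). Msx1 is a homeobox transcription factor of undifferentiated mesenchyme. The sources used here do not give the promoter that drives the introduced Msx1, the number of clones or the stage of the cells at harvest. Whether the replicates were separate cultures is not in the labels either, so every p-value rests on a spread between libraries that could be purely technical.

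RUNX proteins bind DNA through a conserved Runt domain. CBFβ, the product of Cbfb, does not bind DNA itself and raises the affinity of every RUNX protein for it. Runx1 is needed to make blood stem cells and is switched on in denervated and regenerating muscle, Runx2 is needed to make osteoblasts, and Runx3 acts in T cells and sensory neurons. Each Runx gene can be transcribed from a distal promoter (P1) or a proximal promoter (P2), and the resulting proteins differ at their amino terminus.

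Levels are FPKM, fragment counts scaled for transcript length and for library size. A change is the difference in mean log2(FPKM + 1), Msx1 overexpression minus control, with its standard error (SE) and an adjusted p from limma, called at an adjusted p under 0.05. The introduced Msx1 read 7.99, 7.13 and 7.54 FPKM in control and 1004, 943.7 and 912 FPKM in Msx1 libraries 1, 2 and 3, in the direction of the labels. Depth was roughly estimated, at 18800000 to 24200000 fragments per library, and total FPKM ranged from 409664 to 441835 in control and from 390439 to 401802 in Msx1 libraries. All 12 myoblast markers listed passed the minimum for testing. Their summed level was 373 to 385 FPKM in control and 305.5 to 316.8 FPKM in Msx1 libraries, with 4 higher, 5 lower and 3 not called. Those called higher were Mymk, a myoblast fusion gene, from 0.888 ± 0.307 to 6.85 ± 0.483 FPKM, the differentiation regulator Myog, from 2.76 ± 0.469 to 5.75 ± 0.153 FPKM, the acetylcholine receptor gene Chrnd, and Pax7, a satellite cell marker, from 9.21 ± 0.573 to 11.4 ± 0.751 FPKM (SD, n = 3 each). Those called lower included Vcam1, Des, Chrna1 (called in 9 of 17 alternatives) and Myf5. The muscle regulator Myf5 fell from 9.01 ± 0.396 to 1.64 ± 0.0968 FPKM (SD, n = 3 each), and Myod1, the other early myogenic regulator, was not called (change -0.11, adjusted p = 0.109). In bulk RNA, fewer cells expressing a gene and less RNA per cell cannot be told apart.

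The Runx1 and Runx2 starts lie far apart in the annotation of GRCm38. The distal Runx1 start is on chromosome 16 at base 92826149 (minus strand) and the proximal one at base 92697328, 128.8 kb away. The distal Runx2 start is on chromosome 17 at base 44814797 (minus strand) and the proximal one at base 44736648, 78.1 kb away. The distal windows of all 3 Runx genes share a run of 16 bases that holds a pair of RUNX binding sites, spelled out here because it is what the distal promoters have in common. The sequences come from RefSeq (GRCm38.p6), read 5′ to 3′ on the strand of each gene, and capitals mark the shared run:
Runx1 distal, chr16:92826025-92826054, minus strand: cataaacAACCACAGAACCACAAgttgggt
Runx2 distal, chr17:44814583-44814612, minus strand: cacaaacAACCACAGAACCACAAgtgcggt
Runx3 distal, chr4:135120503-135120532, plus strand: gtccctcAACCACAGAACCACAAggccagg

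The windows are set on RefSeq starts, at base 92826074 in Runx1, 44814627 in Runx2 and 135120645 in Runx3. These are not the annotated distal starts given above, by which the transcript rows are grouped. The shared run began 27 bases after the RefSeq start in Runx1, 22 bases after it in Runx2 and at position -135 relative to it in Runx3. Of 32851 promoter windows of 300 bases (250 before to 50 after a start), 4 (0.0122%) held it on either strand. The other window belongs to Gm16225 and overlaps that of Runx3, so these are the same bases counted again. The core ACCACA alone, which the shared run holds 2 times, was found on either strand in 16.8% of all windows. It occurred 2, 3 and 2 times in the distal windows of Runx1, Runx2 and Runx3 and 0 times in the proximal windows of Runx1 and Runx3 and in the Cbfb window. The homeobox motif TAATTG, of the kind that MSX proteins bind, occurred on either strand in 8.0% of all windows and in 0 of these 6. The shared run was picked after the windows had been read, and a match is a description of letters, not a measurement of binding.

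The distal and proximal Runx1 promoters differ in composition, shown here by the bases before each start, because the transcript rows below are grouped by these annotated starts. Capitals mark the CCAAT motif on either strand, which occurs in 37.4% of all windows. The full RefSeq windows of the distal and the proximal start hold 2 each, and those of the distal one lie outside the stretch shown:
Runx1 distal, chr16:92826150-92826324, minus strand: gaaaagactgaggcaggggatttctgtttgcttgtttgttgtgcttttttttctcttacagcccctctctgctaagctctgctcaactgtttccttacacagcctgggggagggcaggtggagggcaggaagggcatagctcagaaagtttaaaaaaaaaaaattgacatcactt
Runx1 proximal, chr16:92697330-92697579, minus strand: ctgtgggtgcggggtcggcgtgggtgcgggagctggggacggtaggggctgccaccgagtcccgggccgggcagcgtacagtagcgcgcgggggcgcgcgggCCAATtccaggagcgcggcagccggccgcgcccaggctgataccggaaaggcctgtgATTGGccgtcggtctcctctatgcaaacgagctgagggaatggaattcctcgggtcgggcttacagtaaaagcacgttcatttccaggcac

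The full window of 300 bases at the proximal Runx1 start was 69.0% G + C with 35 CpG, and the distal one 45.0% with 2 CpG. The proximal window is that of base 92697329, whereas the model of the most abundant Runx1 row begins further in, at base 92696125. No window was available for that base or for the proximal Runx2 start. The distal Runx2 window was close to the distal Runx1 window, at 45.3% G + C with 2 CpG. Of all windows, 93.0% had fewer CpG than the proximal Runx1 window and 14.1% had fewer than either of those distal ones. The distal Runx3 window was 63.7% G + C with 8 CpG, and the Cbfb window 69.7% with 30 CpG.

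Summed over their transcripts, all 4 genes were expressed in C2C12 cells, and Runx2 and Cbfb rose after Msx1, by 1.24-fold and 1.23-fold. Runx1 and Runx3 had changes of similar sign that did not pass. Calls were made for 54.4% of the 12371 genes tested, 22.0% higher and 32.4% lower, so 2 of 4 is near the background. The split of all calls depends on scaling, with 2718 higher and 4014 lower as deposited, 3321 and 3154 after median-of-ratios scaling, and 3503 and 2807 with equal totals without Msx1. Groups did not overlap for 3 of the 4 genes, against 62.3% of all genes tested.

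**Figure D1:**
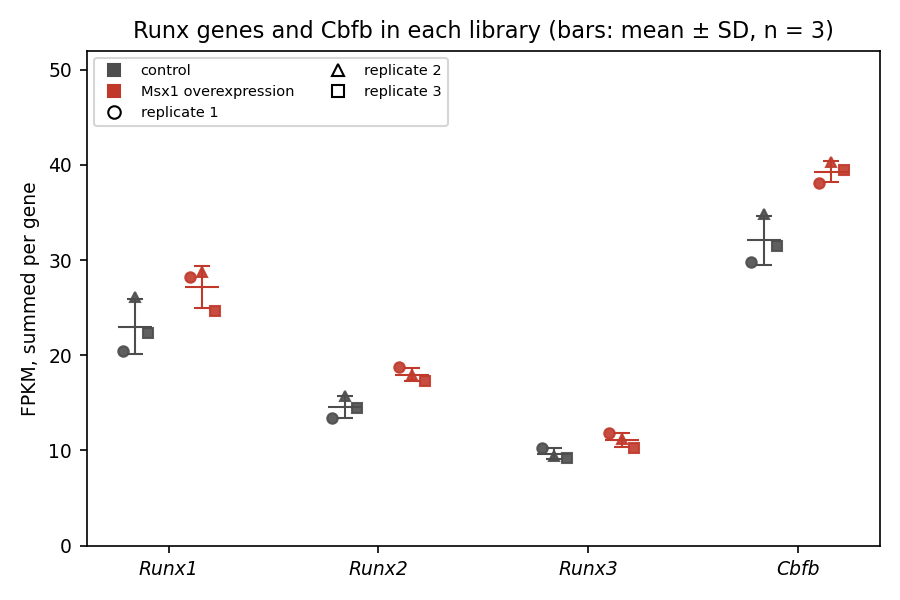
FPKM summed per gene (vertical axis) for Runx1, Runx2, Runx3 and Cbfb in each of the 3 control (grey) and 3 Msx1 (red) libraries, with mean and SD as bars. Cbfb is highest and Runx3 lowest in all 6 libraries, and the control and Msx1 points of Runx1 overlap.

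Runx1 (chromosome 16, 92601466 to 92826149) stood at 20.5, 26.1 and 22.4 FPKM in control libraries 1, 2 and 3 and at 28.3, 28.7 and 24.7 FPKM in Msx1 libraries 1, 2 and 3. Control library 2 lay above Msx1 library 3, so the groups overlapped. The change was 0.24 (SE 0.10, adjusted p = 0.0685), with a 95% interval of 0.015 to 0.461 before adjustment. It was called in 8 of 17 alternatives, among them without control replicate 2 (0.33, adjusted p = 0.0122) and without Msx1 replicate 3 (0.30, adjusted p = 0.0463).

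Runx2 (chromosome 17, 44495987 to 44814797) stood at 13.5, 15.8 and 14.4 FPKM in control and 18.7, 17.9 and 17.3 FPKM in Msx1 libraries. Every Msx1 library was above every control library. The means of 14.6 ± 1.16 and 17.98 ± 0.722 FPKM (SD, n = 3 each) gave a 1.24-fold rise (change 0.29, SE 0.07, adjusted p = 0.00801). The call held in all 17 alternatives.

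Runx3 (chromosome 4, 135120652 to 135177990) stood at 10.3, 9.42 and 9.21 FPKM in control and 11.8, 11.2 and 10.3 FPKM in Msx1 libraries. The lowest Msx1 library and the highest control library nearly met. The change of 0.19 (SE 0.07) had an adjusted p of 0.0561 from limma and a 95% interval of 0.022 to 0.349 before adjustment. It was called in 7 of 17 alternatives, including those without control replicate 1 (adjusted p = 0.0241) and without Msx1 replicate 3 (adjusted p = 0.0413).

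Cbfb (chromosome 8, 105170674 to 105217989) stood at 29.8, 34.9 and 31.5 FPKM in control and 38.1, 40.3 and 39.5 FPKM in Msx1 libraries, without overlap. Its mean rose from 32.1 ± 2.57 to 39.3 ± 1.11 FPKM (SD, n = 3 each), 1.23-fold (change 0.29, SE 0.07, adjusted p = 0.00671). The call held in all 17 alternatives. The order of levels was Cbfb, Runx1, Runx2, Runx3 in 6 of 6 libraries, and for each pair of neighbours the lowest library of the higher gene was above the highest library of the lower gene.

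The small change in Runx1 as a whole covered opposite changes in its transcripts. Transcripts of the distal start fell 4.02-fold while those of the proximal start rose 1.65-fold. Splitting Runx1 and Runx2 by start was decided after the row values had been seen, and the gene table was then fitted again with each of the pair entered as a distal and a proximal sum. In that fit 22.0% of 12373 features were called higher and 32.5% lower.

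Distal Runx1 transcripts summed to 6.41, 9.95 and 6.75 FPKM in control libraries 1, 2 and 3 and to 1.65, 2.15 and 1.96 FPKM in Msx1 libraries 1, 2 and 3. The lowest control library was well above the highest Msx1 library. The means were 7.70 ± 1.95 and 1.92 ± 0.256 FPKM (SD, n = 3 each; change -1.56, SE 0.15, adjusted p = 6.94e-05). Proximal Runx1 transcripts summed to 14.0, 16.2 and 15.6 FPKM in control and to 26.6, 26.6 and 22.7 FPKM in Msx1 libraries, again without overlap. Their means were 15.3 ± 1.11 and 25.3 ± 2.23 FPKM (change 0.69, SE 0.08, adjusted p = 2.05e-04). Both calls held in all 16 alternatives, which moved the distal change between -1.93 and -1.38 and the proximal change between 0.63 and 0.80.

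**Figure D2:**
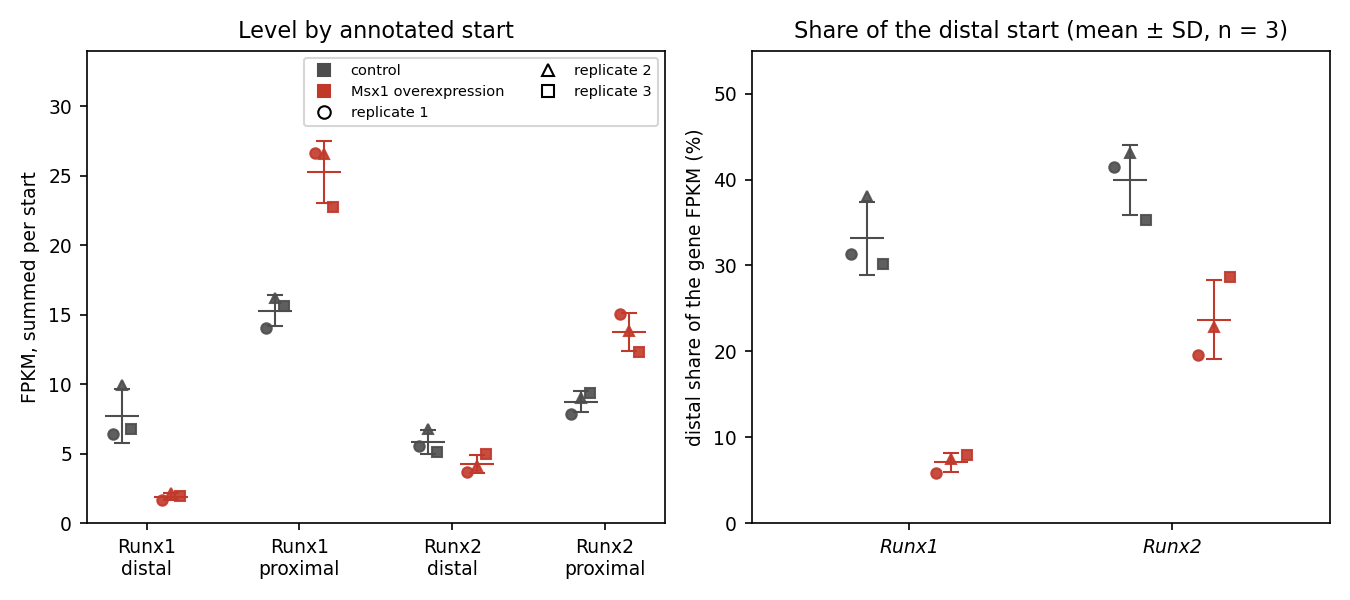
Left, FPKM summed over the transcript rows of each annotated start of Runx1 and Runx2; right, the distal share of each gene's FPKM in percent, for 3 control (grey) and 3 Msx1 (red) libraries with mean and SD. The distal share of Runx1 is 30.2% or more in control and 7.92% or less in Msx1 libraries.

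The distal start accounted for 31.3%, 38.0% and 30.2% of Runx1 FPKM in control libraries 1, 2 and 3 and for 5.82%, 7.5% and 7.92% in Msx1 libraries 1, 2 and 3. A share within a gene does not depend on how libraries are scaled to each other. Its mean went from 33.2% ± 4.25 to 7.08% ± 1.11 (SD, n = 3 each). An exact permutation test (two-sided) can reach no less than 0.1 with 3 libraries a group, and p was 0.1 here, or 0.24 adjusted over 12 shares, ratios and sums.

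Runx1 had 4 transcript rows, all of which passed the minimum for testing. Across rows 13.6% of 17764 tested were called higher and 18.6% lower. NM_001111021, a distal row, stood at 4.69, 8.03 and 5.18 FPKM in control and at 1.01, 1.54 and 1.12 FPKM in Msx1 libraries (change -1.63, SE 0.20, adjusted p = 0.00218). The other distal row, NM_001111022, stood at 1.71, 1.91 and 1.57 FPKM and at 0.634, 0.617 and 0.833 FPKM (change -0.69, SE 0.11, adjusted p = 0.00636). Both were lower in every Msx1 library than in any control library. They share the same GENCODE model, so their separate values are less certain than their sum.

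The proximal row NM_001111023 was the most abundant Runx1 row in every library, at 11.1, 12.4 and 13.0 FPKM in control and 23.3, 21.4 and 19.0 FPKM in Msx1 libraries (change 0.75, SE 0.09, adjusted p = 0.00211). The other proximal row, NM_009821, stood at 2.93, 3.83 and 2.68 FPKM and at 3.34, 5.14 and 3.75 FPKM, with overlapping groups (change 0.29, SE 0.17, adjusted p = 0.264). The rise of the proximal class lay mostly in NM_001111023, whose model starts at base 92696125, inside the first proximal start, and encodes 451 residues in 6 exons, against 465 residues in 8 exons for the distal model and 387 residues in 5 exons for NM_009821. The models also differ at their 3′ ends, with lengths of 5861 bases for the distal model, 1985 bases for NM_001111023 and 4738 bases for NM_009821. For Runx1, a difference in start and a difference in 3′ end cannot be told apart in these values. Because FPKM is scaled for transcript length, the Runx1 sum and its distal share also depend on the lengths used. How far the direction of the Runx1 sum rests on them was not tested.

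Among 3494 genes with at least 2 rows tested, Runx1 was 1 of 37 (1.06%) with rows called in both directions. It was 1 of 8 where a row was lower by at least 1 and another higher by at least 0.5, limits chosen after its values were seen.

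**Figure D3:**
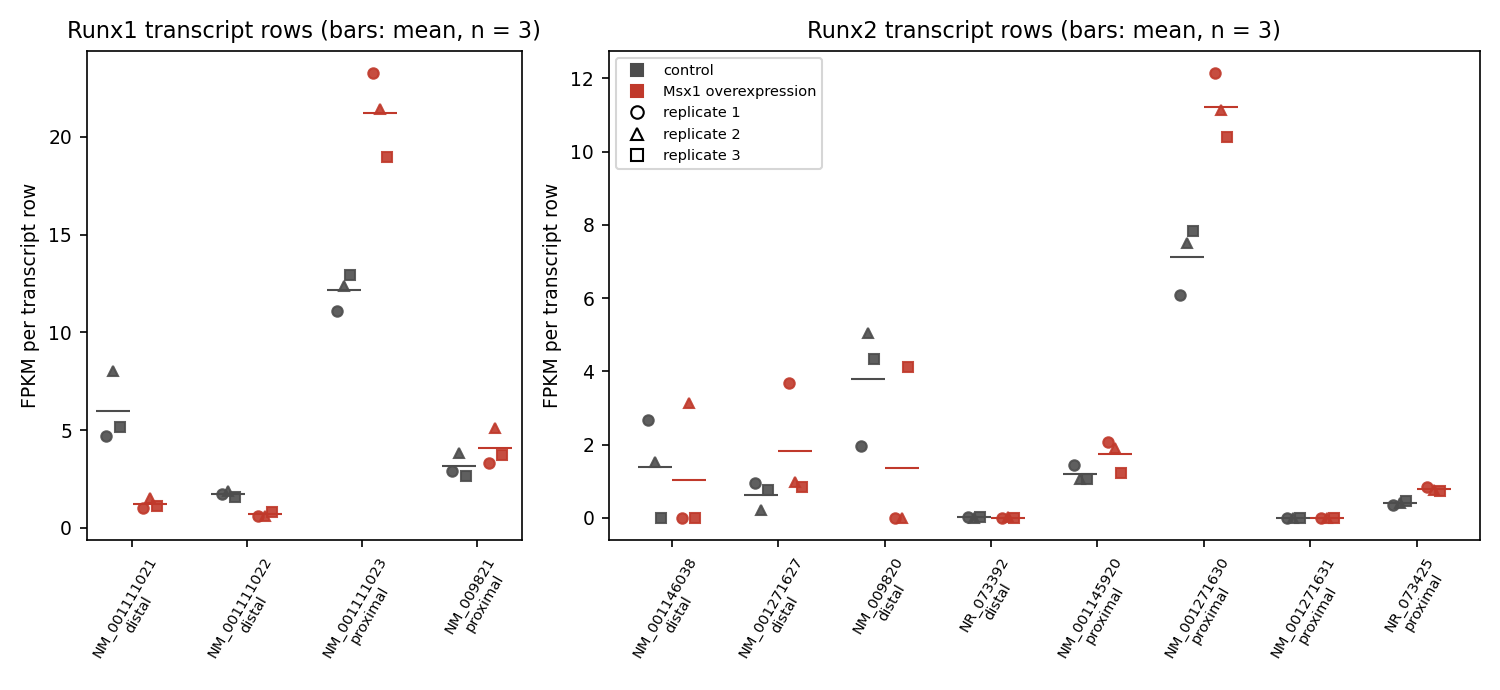
FPKM of each RefSeq transcript row of Runx1 (left, 4 rows) and Runx2 (right, 8 rows) in the 3 control (grey) and 3 Msx1 (red) libraries, with group means as bars and the annotated start under each name. In Runx1 both distal rows are lower and NM_001111023 is higher after Msx1, and in Runx2 NM_001271630 is higher while distal rows are scattered.

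Runx2 leaned the same way by smaller amounts. Its proximal transcripts rose 1.57-fold, and its distal transcripts fell 1.37-fold in a call that several alternatives did not keep. Proximal transcripts summed to 7.87, 8.98 and 9.34 FPKM in control and to 15.1, 13.8 and 12.3 FPKM in Msx1 libraries (change 0.60, SE 0.09, adjusted p = 7.59e-04), and the call held in all 16 alternatives. Distal transcripts summed to 5.59, 6.79 and 5.10 FPKM and to 3.67, 4.09 and 4.95 FPKM (change -0.38, SE 0.12, adjusted p = 0.0267). The groups did not overlap in either class, though distal Msx1 library 3 lay just below control library 3. The distal call was lost in 6 of 16 alternatives (adjusted p from 0.0153 to 0.095 over all 16), among them without control replicate 2, without Msx1 replicate 1 and without Msx1 replicate 2.

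The distal share of Runx2 was 41.5%, 43.1% and 35.3% in control libraries 1, 2 and 3 and 19.6%, 22.9% and 28.6% in Msx1 libraries 1, 2 and 3. Every Msx1 library was below every control library, with means of 39.95% ± 4.10 and 23.7% ± 4.58 (SD, n = 3 each; exact two-sided permutation p = 0.1, adjusted 0.24). The distal to proximal ratio fell in log2 terms by 1.11 for Runx2 and by 2.71 for Runx1, without overlap between groups in either gene. Whether these differ between Runx1 and Runx2 was not tested.

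Runx2 had 8 rows, of which 6 passed the minimum. The proximal row NM_001271630 was the most abundant in every library, at 6.08, 7.495 and 7.82 FPKM in control and 12.1, 11.1 and 10.4 FPKM in Msx1 libraries (change 0.59, SE 0.11, adjusted p = 0.00892). A further proximal row, NM_001145920, was at 1.44, 1.07 and 1.07 FPKM and at 2.07, 1.91 and 1.23 FPKM and was not called (adjusted p = 0.204). It shares its GENCODE model with NM_001271630. NR_073425, a non-coding row of the proximal region, was at 0.354, 0.415 and 0.456 FPKM and at 0.851, 0.765 and 0.729 FPKM. It did not overlap between groups but missed the threshold (change 0.34, SE 0.11, adjusted p = 0.0587), and it passed in 5 of 15 alternatives.

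The 3 coding distal rows of Runx2 share a single GENCODE model, and the values were split among them unevenly from library to library. NM_009820 was at 1.97, 5.06 and 4.33 FPKM in control and listed at 0 in Msx1 libraries 1 and 2 but at 4.11 FPKM in Msx1 library 3. NM_001146038 was listed at 0 in control library 3 and Msx1 libraries 1 and 3 and reached 3.12 FPKM in Msx1 library 2. NM_001271627 ranged from 0.205 to 0.943 FPKM in control and from 0.845 to 3.67 FPKM in Msx1 libraries. None of these rows was called by limma (adjusted p = 0.184, 0.731 and 0.259), and the sums over the start are the steadier measure. NM_001271631 was listed at 0 in all 6 libraries and NR_073392 did not exceed 0.013 FPKM. The GENCODE models of NM_001271630, NM_001145920 and the 3 coding distal rows all end at base 44604001. Ends of the RefSeq rows themselves were not available, so whether 3′ ends separate the rows of the Runx2 starts was not tested.

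Supt3, a transcription coactivator subunit gene (chromosome 17, 44777152 to 45119290), is annotated on the opposite strand across the distal Runx2 start, and its span does not reach the proximal one. It stood at 13.8, 12.2 and 10.4 FPKM in control and 10.8, 9.59 and 8.91 FPKM in Msx1 libraries, with overlapping groups (change -0.28, SE 0.11, adjusted p = 0.0549). No source used here says that strand was used in counting, so reads of the overlap cannot be told apart, and its part in the distal Runx2 values was not tested. The antisense genes Runx2os1, Runx2os2, Runx2os3, Gm26626 (in Runx1) and Gm16224 (in Runx3) were not analysed here. Of these, Runx2os1 (44735845 to 44737612) lies across the proximal Runx2 start, and its part in the proximal Runx2 values was not tested.

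Runx3 had 1 row, NM_019732, whose model begins at the distal start, so no share between starts could be formed. Its values are those of the gene, and among rows the adjusted p was 0.119.

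Cbfb had 4 rows that begin close to each other, of which 3 passed the minimum. The most abundant was NM_001161458 (182 residues), at 18.98, 22.1 and 19.4 FPKM in control and 25.8, 24.4 and 22.9 FPKM in Msx1 libraries. It rose by 0.26 (SE 0.08, adjusted p = 0.0468), a call kept in 8 of 16 alternatives (adjusted p from 0.0137 to 0.142). NM_022309 (187 residues) was at 10.02, 12.1 and 11.1 FPKM and at 11.0, 14.6 and 15.5 FPKM and was not called (change 0.28, SE 0.14, adjusted p = 0.185). Its share of the pair was 35.4% ± 0.965 in control and 35.95% ± 5.35 in Msx1 libraries (SD, n = 3 each; exact two-sided permutation p = 0.9, adjusted 0.9). NM_001161457 (155 residues) was at 0.643 to 0.993 FPKM in control and 0.887 to 1.08 FPKM in Msx1 libraries, and NM_001161456 did not exceed 0.375 FPKM. Of the 14 member rows that passed the minimum, 5 (3 higher, 2 lower) were called and 7 did not overlap between groups, against 32.3% and 48.2% of all rows tested.

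The proportions of the 3 Runx genes to each other were close in control and Msx1 libraries. Runx1 held 48.6% ± 2.33 of their summed FPKM in control and 48.3% ± 1.26 in Msx1 libraries (SD, n = 3 each), Runx2 30.8% ± 0.48 and 31.98% ± 1.05, and Runx3 20.6% ± 2.52 and 19.7% ± 0.40. Exact two-sided permutation p-values for these shares were 0.9, 0.2 and 0.8. The sum of the 3 genes was 44.2, 51.3 and 46.0 FPKM in control and 58.8, 57.8 and 52.3 FPKM in Msx1 libraries, without overlap (exact two-sided permutation p = 0.1, adjusted 0.24). The log2 ratio of that sum to Cbfb was 0.56 ± 0.011 in control and 0.52 ± 0.112 in Msx1 libraries (SD over 3 libraries a group; exact two-sided permutation p = 0.7). With p-values no smaller than 0.1 possible, these tests cannot show that shares did not differ.

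The genes whose profile over the 6 libraries was most like that of each member, by Pearson's r of log2(FPKM + 1) over the 8846 tested genes whose mean reached 5 FPKM, are named here as a description. For Runx1 they were Tmem131 (r = 0.9968), Rictor (0.9956) and Rsbn1l (0.9936), and for Runx2 Hectd4 (0.999), Foxj2 (0.9989) and Ankrd11 (0.9972). For Runx3 they were Pprc1 (0.9907), Tsc22d4 (0.9801) and 1190005I06Rik (0.9798), and for Cbfb Zcchc24 (0.9968), Arhgap10 (0.9953) and Map4k3 (0.995). The 6 points share 2 groups and each library's scaling, and the best of 8846 genes over 6 points is near 1 by selection.

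Of 29 tested genes of RUNX co-regulators, 12 rose, 6 fell and 11 were not called, so that 62.1% were called, against 54.4% of all genes tested. The median change was 0.16 against -0.07 over all genes tested. Tle3, a Groucho corepressor that binds the carboxy terminus of RUNX proteins, rose from 21.8 ± 0.322 to 31.7 ± 1.06 FPKM (SD, n = 3 each; change 0.52, SE 0.05, adjusted p = 6.27e-05). Its relative Tle4 rose from 0.26 ± 0.079 to 0.991 ± 0.038 FPKM and passed the minimum through its Msx1 libraries alone. Ets1, an ETS factor that binds DNA together with RUNX1, rose from 19.6 ± 1.34 to 30.2 ± 0.868 FPKM. Smad3, a TGF-beta signal transducer that joins RUNX proteins on target genes, rose from 19.1 ± 1.29 to 37.9 ± 0.661 FPKM (change 0.96, SE 0.06, adjusted p = 5.72e-06).

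The ETO family of corepressors, known as fusion partners of RUNX1 in leukaemia, was represented mainly by Cbfa2t2. Cbfa2t2 rose from 8.14 ± 0.766 to 10.1 ± 0.20 FPKM (SD, n = 3 each; adjusted p = 0.013). Runx1t1 did not exceed 0.014 FPKM in any library. Cbfa2t3 was at 0.014 to 0.02 FPKM in control and 0.307 to 0.324 FPKM in Msx1 libraries, below the minimum for testing. Yap1, a Hippo pathway coactivator, was at 41.6 to 43.4 FPKM in control, at 45.9 and 45.2 FPKM in Msx1 libraries 2 and 3 and at 19.2 FPKM in Msx1 library 1. It was not called (change -0.31, adjusted p = 0.4), and without Msx1 replicate 1 the change was 0.09 (adjusted p = 0.242).

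Of 24 genes for modification and turnover of RUNX proteins, 3 rose, 10 fell and 11 were not called. That is 54.2% called, against 54.4% of all genes, and a median change of -0.12 against -0.07. The genes that fell most were of the cell cycle. Cdc20, an activator of the anaphase-promoting complex, fell from 55.7 ± 8.24 to 18.9 ± 1.26 FPKM (SD, n = 3 each; change -1.50, SE 0.10, adjusted p = 1.03e-05), the kinase gene Cdk1 from 31.7 ± 4.09 to 13.3 ± 0.682 FPKM and the ubiquitin ligase gene Skp2 from 8.93 ± 0.363 to 4.76 ± 0.019 FPKM. The ubiquitin ligase gene Wwp2 fell from 21.7 ± 0.548 to 13.5 ± 0.432 FPKM. Ccnd1, encoding cyclin D1, whose kinase complex promotes degradation of RUNX2, rose from 103.8 ± 11.0 to 284.5 ± 7.79 FPKM (change 1.45, SE 0.08).

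Of 17 tested transcription factors that oppose or partner RUNX2, 7 rose, 2 fell and 8 were not called. That is 52.9% called, against 54.4% of all genes, and a median change of 0.31 against -0.07. Weighting the samples gave 11 higher and 4 lower, and testing without a filter gave 4 lower. Twist2, whose product blocks the RUNX2 Runt domain, rose from 19.6 ± 2.39 to 46.0 ± 1.75 FPKM (SD, n = 3 each; change 1.20, SE 0.09, adjusted p = 1.26e-05). Its relative Twist1 did not exceed 0.066 FPKM. Hes1, a Notch target that binds RUNX proteins, rose from 5.89 ± 0.978 to 25.2 ± 0.682 FPKM. The homeobox gene Dlx3 rose from 2.71 ± 0.137 to 10.1 ± 0.344 FPKM and the hedgehog effector Gli2 from 0.438 ± 0.052 to 3.29 ± 0.189 FPKM. Gli2 passed the minimum through its Msx1 libraries alone. Pparg, the fat cell regulator, fell from 4.40 ± 0.362 to 1.32 ± 0.042 FPKM. Hand2, Dlx5 and Dlx6 were listed at 0 in all 6 libraries.

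**Figure D4:**
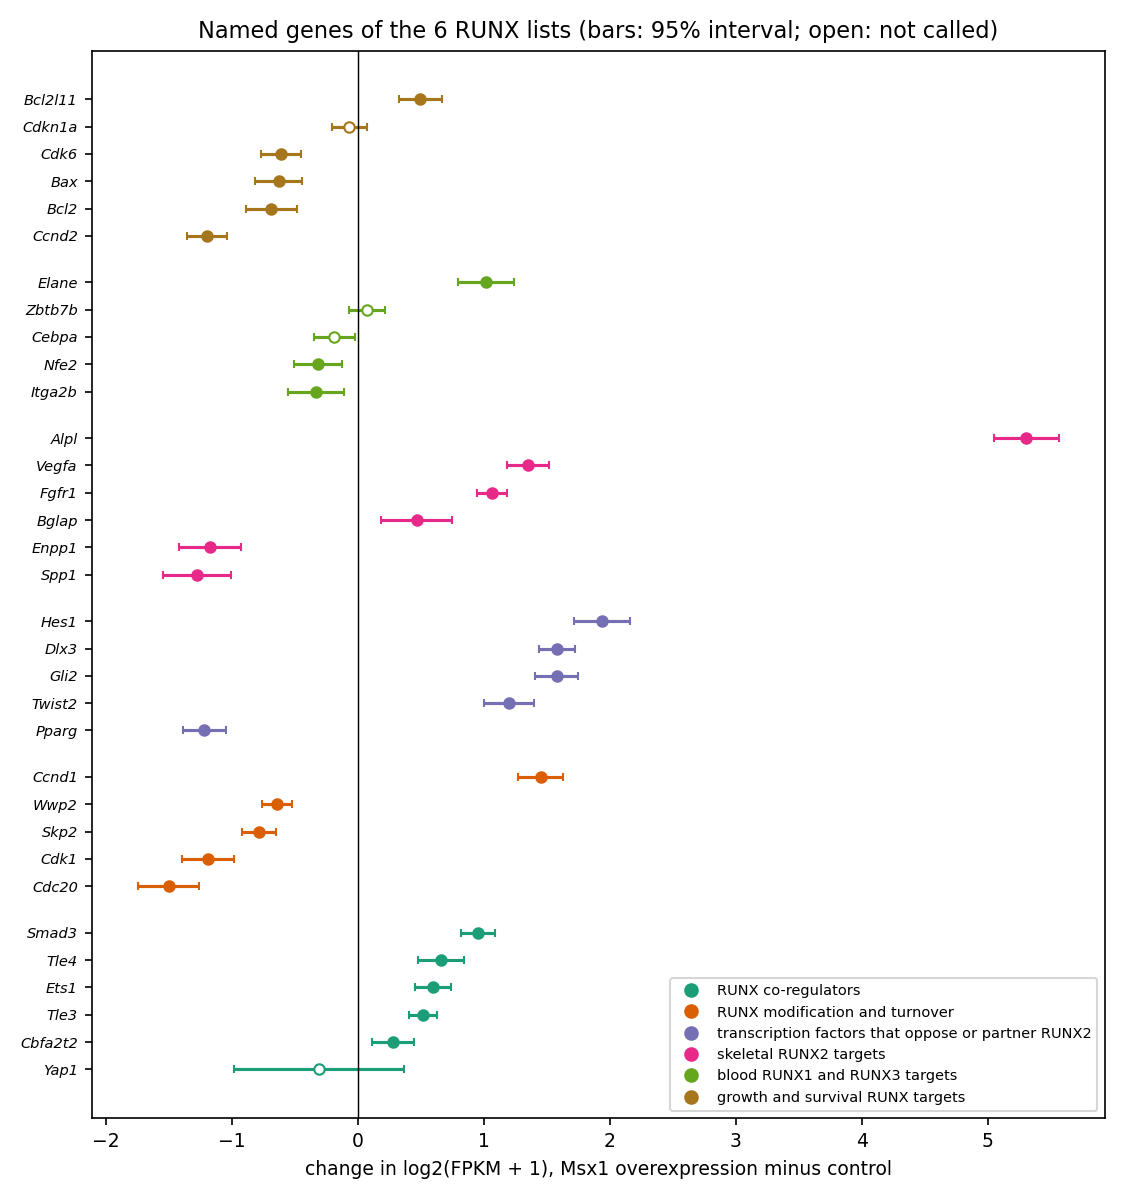
Change in log2(FPKM + 1), Msx1 overexpression minus control (horizontal axis), with 95% intervals before adjustment, for the named genes of 6 lists tied to RUNX function; filled points were called and open points were not. Alpl stands farthest to the right at 5.31, and Spp1 and Enpp1 of the same list lie below 0.

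The skeletal targets of RUNX2 changed in both directions. Among the 15 that reached the minimum, 8 rose and 4 fell, 3 were not called, and 10 more stayed below it. That is 80.0% called, against 54.4% of all genes, and a median change of 0.24 against -0.07. The 4 that fell include Phex, described below, which passed the minimum through its control libraries alone. Alpl, the alkaline phosphatase of mineralizing tissue, read 0.775, 0.326 and 0.727 FPKM in control and 62.97, 59.9 and 64.0 FPKM in Msx1 libraries (change 5.31, SE 0.11, adjusted p = 2.99e-08). Spp1, the bone matrix protein osteopontin, fell from 977.7 ± 139.5 to 402 ± 37.5 FPKM (SD, n = 3 each; change -1.27, SE 0.12, adjusted p = 5.2e-05). Enpp1, which makes the mineralization inhibitor pyrophosphate, fell from 4.90 ± 0.784 to 1.596 ± 0.157 FPKM. Vegfa and the receptor gene Fgfr1 rose from 31.8 ± 2.33 to 82.6 ± 5.29 and from 50.9 ± 1.87 to 107.9 ± 3.40 FPKM.

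Of the 6 mature osteoblast markers, 3 were tested, with 1 higher, 1 lower and 1 not called. All 6 are also in the list of skeletal targets, so these calls were counted there too. Ibsp, encoding bone sialoprotein, was listed at 0 in all 6 libraries, and Sp7, the osteoblast factor downstream of RUNX2, was at 0.088 to 0.137 FPKM in control and 0.139 to 0.162 FPKM in Msx1 libraries. Osteocalcin, Bglap, rose from 3.40 ± 0.671 to 5.05 ± 0.552 FPKM (SD, n = 3 each; change 0.47, SE 0.12, adjusted p = 0.0132). It has near-identical copies, so its reads may be divided among them. One of those copies, Bglap2, was at 15.4 ± 0.387 and 13.8 ± 0.704 FPKM and was not called (change -0.14, SE 0.06, adjusted p = 0.0644). Phex, a peptidase gene of bone and tooth mineralization, read 1.71, 3.23 and 2.39 FPKM in control and 0.132, 0.084 and 0.12 FPKM in Msx1 libraries, and fell in all 17 alternatives (change -1.61, SE 0.15, adjusted p = 5.77e-05). Phex passed the minimum through its control libraries alone. Dmp1, a matrix protein gene of late osteoblasts and osteocytes, was at 0.208 to 0.353 FPKM in control and 0.134 to 0.164 FPKM in Msx1 libraries, below the minimum. The summed level of the 6 osteoblast markers was 20.6 to 22.6 FPKM in control and 19.1 to 19.6 FPKM in Msx1 libraries.

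Blood targets of RUNX1 and RUNX3 were mostly below the minimum, with 5 of 24 tested (1 higher, 2 lower, 2 not called) and 9 listed at 0 in all 6 libraries. That is 3 of 5 called, against 54.4% of all genes, and a median change of -0.19 against -0.07. Spi1, the myeloid master regulator, did not exceed 0.168 FPKM, and Ptprc, the pan-leukocyte marker CD45, was listed at 0 throughout. Elane, neutrophil elastase, rose from 0.071 ± 0.062 to 1.17 ± 0.215 FPKM (SD, n = 3 each). It is the 1 gene called higher, and it passed the minimum through its Msx1 libraries alone (mean over all 6, 0.621 FPKM). The Elane call was kept in all 15 alternatives that tested it. Itga2b and Nfe2, of the platelet lineage, fell from 1.81 ± 0.21 to 1.23 ± 0.204 and from 0.992 ± 0.101 to 0.598 ± 0.101 FPKM. The Itga2b call was kept in 13 of 17 alternatives and was lost with equal totals without Msx1 (adjusted p = 0.0542) and when control replicate 1 (0.0514), control replicate 3 (0.071) or Msx1 replicate 3 (0.0641) was left out. The Nfe2 call was kept in 15 of 16 and lost with its most abundant row alone. The counts moved between 0 and 2 higher and between 1 and 4 lower over the alternatives. They include 0 higher and 1 lower without Msx1 replicate 3, and 1 lower without control replicate 1. Of 10 blood cell markers, 2 were tested, Lyz2 (higher) and Cd68 (lower), and 4 were listed at 0. None of 5 endothelial or 4 sensory neuron markers reached the minimum. Of 5 chondrocyte markers, 2 were tested. Col10a1 was called higher, from 0.973 ± 0.153 to 1.69 ± 0.276 FPKM, and Sox9, at 22.95 ± 0.235 and 23.45 ± 1.467 FPKM, was not called (SD, n = 3 each).

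Of 9 tested growth and survival genes described as RUNX targets, 2 rose, 5 fell and 2 were not called. That is 77.8% called, against 54.4% of all genes, and a median change of -0.25 against -0.07. Ccnd2 fell from 9.57 ± 0.58 to 3.60 ± 0.201 FPKM (SD, n = 3 each; change -1.20, SE 0.07, adjusted p = 3.92e-06) and the kinase gene Cdk6 from 6.23 ± 0.353 to 3.75 ± 0.221 FPKM. Bcl2l11, the death-promoting BIM, rose from 5.12 ± 0.468 to 7.61 ± 0.296 FPKM. The survival gene Bcl2 and the death effector Bax fell from 2.38 ± 0.154 to 1.11 ± 0.198 and from 114 ± 12.9 to 73.3 ± 2.27 FPKM. Cdkn1a, the cell cycle inhibitor p21, was at 183.8 ± 12.01 and 175.1 ± 1.48 FPKM and was not called (change -0.07, SE 0.06, adjusted p = 0.377, range 0.236 to 0.968 over 17 alternatives).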

How the data were processed

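The authors deposited 1 table of FPKM, with 1 row per RefSeq transcript and 1 column per library. The tools named are Trimmomatic, HISAT2 and StringTie, and the build GRCm38 (mm10), per the submitters' processing notes. Their versions and settings, and any use of strand, are not given in the sources used. Extraction used Trizol and library preparation a NEBNext Ultra kit, per the labels' protocols. Control columns were matched to control samples by number. StringTie estimates how reads divide among overlapping transcripts, so single rows are less certain than sums.

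Symbols came from RefSeq for 38188 rows and from GENCODE (release M21) for 161, and 119 rows kept their identifiers. Starts, exons and lengths of member rows came from the GENCODE models cross-referenced to them. A start within 5000 bases of the outermost one was called distal. Genes and rows with a mean of at least 0.5 FPKM were tested on log2(FPKM + 1) with limma 3.58.1 (R 4.3.3, intensity trend) and Benjamini-Hochberg adjustment over all features tested. Depth was estimated by searching from 10000000 to 30000000 fragments for the step that makes most low values whole. The best step put 34.2% to 36.9% of them within 0.1 of a whole number, where an unrelated step gives 20%, so depths are rough and whole reads were not recovered.

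The members and lists were chosen with earlier results of these data known. Some genes belong to several lists, Cdk6 and Ccnd3 among them, so the counts of the lists are not independent. Named genes were the members and their rows, a set always named, up to 5 tested genes with the smallest adjusted p from each of 6 lists, the 3 most alike genes per member, and genes overlapping a member. Some genes of the co-regulator and myoblast lists are not reported here by name.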

Additional observations from a re-analysis of the deposited data

How the results depend on the processing

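Under all alternatives run (other pseudocounts, filters and scalings, no intensity trend, sample weights, a replicate block and each library left out) the Runx2, Cbfb and Msx1 calls, both Runx1 start classes and the proximal Runx2 class kept their direction and call. The Runx1 gene sum gained a call after median-of-ratios scaling (0.312, adjusted p = 0.0233), quantile normalization (0.282), equal totals without Msx1 (0.346), sample weights (0.28) and with its most abundant row alone (0.755), and ranged from 0.16 to 0.33 with 1 library left out. Runx3 gained one after the same scalings (0.256, 0.214 and 0.289) and with sample weights (0.256), and ranged from 0.141 to 0.234. Distal Runx2 lost its call without a filter (-0.381, adjusted p = 0.0612), with equal totals without Msx1 (-0.288) and after median-of-ratios scaling (-0.317), and ranged from -0.477 to -0.282 with 1 library left out. With a pseudocount of 1 the log2 distal to proximal ratio of Runx1 changed by -2.25 instead of -2.71, by construction. The cause of the other moves was not tested.

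Same-numbered libraries correlated at 0.055, 0.226 and 0.037 in their deviations, and other pairs at -0.204 to 0.133. Deviations from a mean of 3 libraries are tied to each other, so these values cannot show whether numbers pair the samples. With the replicate block the Runx1 change of 0.238 (adjusted p = 0.0411) and the Runx3 change of 0.185 (adjusted p = 0.0362) passed, and 2692 genes were called higher and 4055 lower, against 2718 and 4014. Values far under 0.5 FPKM rest on few fragments at this depth, and how many depends on transcript length.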

Other observations

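Other genes with rows called in opposite directions, by at least 1 lower and 0.5 higher, were Cacnb3, Creld1, Dzip1l, Fgfr2, Oxr1, Sulf1 and Trmt2b, chosen after their values were seen. In Fgfr2, an FGF receptor gene of skeletal development, NM_010207 fell from 3.75 ± 1.61 to 0.774 ± 0.242 FPKM and NM_001347638 rose from 4.98 ± 0.724 to 8.52 ± 0.269 FPKM (SD, n = 3 each; changes -1.37 and 0.68, limma adjusted p = 0.0126 and 0.00452). Summed, Fgfr2 was not called. In Sulf1, which trims heparan sulfate, NM_001198565 fell from 2.82 ± 0.728 to 0.834 ± 0.225 FPKM and NM_172294 rose from 1.85 ± 0.361 to 4.59 ± 0.055 FPKM.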
